A study of Mus musculus and Mus musculus
Oryx dammah with 30 samples.

Results

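The transcripts described here are those of mouse 4-cell nuclear transfer (NT) embryos that carried C2C12 nuclei and were cultured with or without α-amanitin. The members were chosen by level alone: a gene was kept when its FPKM, the read count scaled to gene length in kilobases and to library size, was at least 1 in 3 or more of the 6 libraries. This left 9884 of the 53023 genes in the table. C2C12 is an established mouse myoblast line from the C3H strain. Recipients were fertilised BDF1 embryos kept in 0.1 µg/ml demecolcine from 40 h after insemination, and the paper places such embryos at G2/M from 46 h. C2C12 cells were fused with them from 46 h, and the reconstructed embryos stayed in demecolcine for a further 24 h, to 70 h. Demecolcine, the transferred C2C12 nuclei and the embryo's own nuclei were therefore shared by both groups, and only α-amanitin differed. Each group had 3 libraries, each from a pool of 3 embryos: S15, S17 and S7 without α-amanitin, and S16, S18 and S8 with it. Pools held recipient and donor material together, so a transcript was not assigned to either genome here, and fewer cells and less RNA per cell cannot be told apart.

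α-Amanitin is the toxin of the death cap mushroom. It binds RNA polymerase II (Pol II), which makes messenger RNAs, most long noncoding RNAs and the precursors of most small nucleolar RNAs, and it holds the enzyme in place. RNA polymerase I and the mitochondrial polymerase are resistant, and RNA polymerase III of mouse is far less sensitive. A mouse embryo at this stage holds RNA stored in the egg beside RNA made after its own genome has been switched on. The comparison asks which transcripts depended on Pol II during the culture, and which were found at a like FPKM when it was blocked.

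The 6 libraries held between 1136771 and 3101002 counted reads, and the difference of group means was within their spread (two-sided exact permutation p = 0.9, in a design of 3 against 3 that cannot go below 0.1). At an equal depth of 1136771 reads, 14558.5 ± 328 genes had a read without α-amanitin and 11920 ± 196 with it (SD, n = 3, exact permutation p = 0.1), and the groups did not overlap. The 100 most abundant genes took 27.8 ± 0.851% of reads without the toxin and 38.8 ± 3.57% with it (exact permutation p = 0.1). Of 38 myoblast markers 11 were members, none passed the limma test at an adjusted p under 0.05, and 1 had an unadjusted p under 0.05. The summed FPKM of the 38 was 274, 241 and 856 in S15, S17 and S7 and 196, 639 and 3307 in S16, S18 and S8. Lgals1, a secreted galectin, stood at 115, 135 and 543 in S15, S17 and S7 and at 69.3, 154 and 1832 in S16, S18 and S8. S100a4, a calcium-binding protein of mesenchymal cells, stood at 10.5, 7.49 and 120.3 without and at 2.21, 10.5 and 1031 with α-amanitin. S8 thus stood apart, and S7 and in the sum S18 lay above the other 3 libraries. Some counts are also given without both S7 and S8, and without S18. Of 17 cumulus cell markers and 15 spermatid markers, 2 each were members, with summed FPKM of at most 33.8 in any library. Among oocyte genes Dppa3 was abundant, and the rest of that list summed to an FPKM of 391 to 812, as described below.

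Of all members, 1093 (11.1%) rose without α-amanitin and 112 (1.13%) fell at a Benjamini-Hochberg adjusted p under 0.05 (limma on log2(FPKM + 1), over all members). Those whose fitted change of FPKM + 1 was also 4-fold or more, 613 (6.2%) higher and 36 (0.364%) lower, are the genes called below. For called genes with few reads the lower bound printed for the fold can be under 4. Counts given for a setting, such as a library left out, use both criteria, and a single gene's call is said to be lost where its adjusted p no longer passed. Of the 106 genes called that the naming rule selected, 43 were lost when every gene with a read was tested and 69 without both S7 and S8, and these losses are counted here and not repeated gene by gene. In all other alternatives 56 of the 106 kept their adjusted p, and the losses of those described are named. Alternatives given in parentheses or after a count are those that moved it by over 1.5 times. Of the 52 counts of 1 to 5 genes in a list or type, 51 moved by that much in at least 1 alternative, so such small counts are not stable, also where no alternative is printed. The genes called higher had a median FPKM of 13.9 without α-amanitin and of 0.931 with it. Together they took 5.28%, 4.49% and 5.47% of the reads in S15, S17 and S7, and 0.993%, 0.61% and 0.341% in S16, S18 and S8. Most were still detected under the toxin: 509 of the 613 had a read in at least 1 treated library, and 141 had an FPKM of at least 1 in all 3. Of the 509, S16 held the highest treated level for 328, S18 for 110 and S8 for 71. A group of 1164 genes (11.8%) met the definition of retained used here, an FPKM of at least 1 in all 3 treated libraries and a 95% interval of the log2 change inside −1 to 1. Retained genes had a median FPKM of 55.5 without and 57.4 with the toxin, and took 36.8% to 38.6% and 38.9% to 40.9% of reads. For 4609 further genes that were present in all 3 treated libraries and missed the adjusted p, the interval was too wide to place them.

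**Figure D1:**
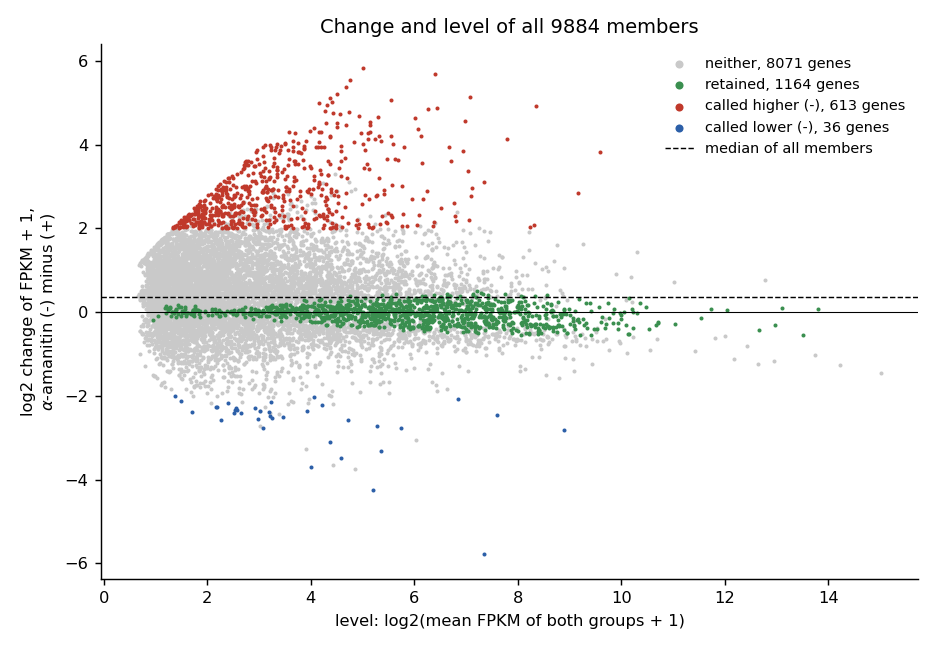
Each point is 1 of the 9884 members. The horizontal axis is the level, log2 of the mean FPKM over both groups plus 1, and the vertical axis is the log2 change of FPKM + 1, without minus with α-amanitin. Red points are the 613 genes called higher, blue the 36 called lower, green the 1164 retained and grey all others. The dashed line is the median of all members, 0.37, and the called genes lie mostly at low to middle levels while retained genes reach the highest.

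FPKM are shares of a library, so the classes retained and lower describe shares and not amounts per embryo. The paper scaled its α-amanitin comparison by ERCC RNA spike-ins, and no spike-in is listed among the genes used here. The median log2 change of all members was 0.37 and not 0. Median-of-ratios scaling lowered this median to 0.13 and gave 442 genes higher and 53 lower (89.3% of calls higher against 94.5%), so list medians are given beside the 0.37 of all members. The filter also bears on the counts. For 634 members the FPKM was at least 1 in all libraries without α-amanitin and in none with it, and these supplied 214 of the genes called higher. Another 69 were members through the treated libraries alone, and they supplied 6 of the genes called lower. All 613 and all 36 called genes had groups that did not overlap, as did 3476 members (35.2%) in either direction. Leaving out 1 library gave between 298 (without S15) and 797 (without S16) genes higher and between 7 (without S18) and 58 (without S16) lower. Without both S7 and S8, 86 and 5 were called, of which 84 and 4 were among the 613 and 36.

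**Figure D2:**
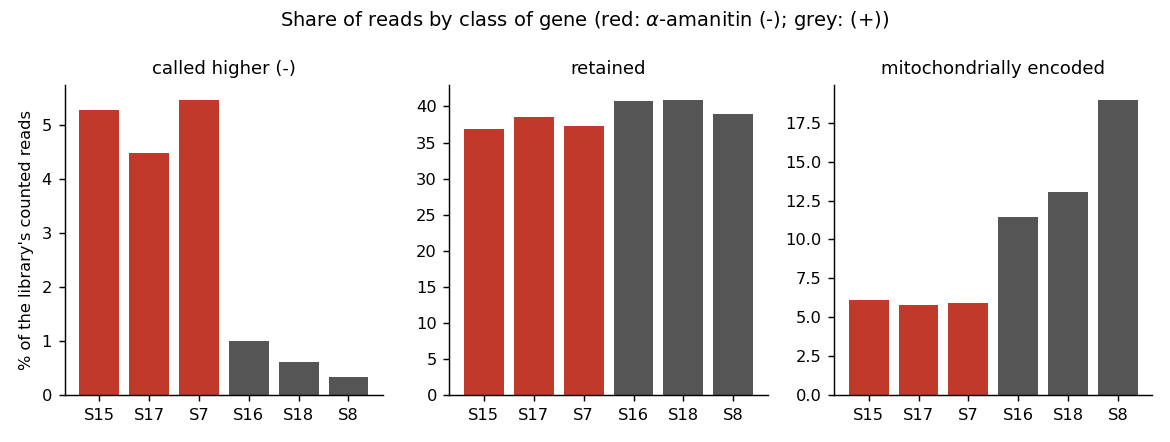
Bars give the percentage of each library's counted reads on genes called higher (left), retained genes (middle) and mitochondrially encoded genes (right). Red bars are S15, S17 and S7 without α-amanitin and grey bars S16, S18 and S8 with it. Genes called higher took at least 4.49% without and at most 0.993% with the toxin, and mitochondrially encoded genes at most 6.09% without and at least 11.4% with it.

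Gene types, as annotated in the table, are given by the share of their members in each class. Protein-coding genes made up 8024 members, of which 510 (6.36%) were higher, 13 (0.162%) lower and 1073 (13.4%) retained. The 510 became 73 without both S7 and S8, 214 with every gene with a read tested, 236 without S15, 251 without S7, 300 without S18 and 322 without S17, the 13 became 2 without S18, 3 without both S7 and S8 or with every gene with a read tested, 4 without S15, 5 without S17 or S7, 7 without S8 and 21 without S16, and the 1073 became 513 without S17, 538 without S18, 561 without S15 and 598 without S16. Long intergenic noncoding RNAs (lincRNAs) were called higher in 34 of 270 cases (12.6%), and 30 of the 270 were members through the libraries without α-amanitin alone, while 4 were lower and 5 (1.85%) retained. The number higher was 3 without both S7 and S8, 14 with every gene with a read tested, 18 at an FPKM minimum of 5 or at a minimum of 10 reads, 20 without S7 and 21 without S15. The most abundant was AC163667.1, an unnamed lincRNA on chromosome 13, with an FPKM of 387, 171 and 228 without and of 7.26, 7.51 and 3.91 with α-amanitin (log2 change 5.15, SE 0.38, adjusted p = 0.00104). The groups were far apart, and the call held in every alternative run. Gm31793, another lincRNA, stood at 13.7, 21.1 and 18.9 without the toxin and had at most 1 read in any treated library (at least 4.06-fold higher, adjusted p = 0.00293). Gm40662 had 7, 11 and 13 reads against 0 in each treated library (at least 2.75-fold higher, adjusted p = 0.00511).

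Antisense RNAs were called higher in 10 of 146 cases (6.85%), lower in 2 and retained in 1. Of the 146, 18 were members through the libraries without α-amanitin alone and 5 through the treated ones alone. The number higher was 1 without both S7 and S8 or at an FPKM minimum of 5, 3 at a minimum of 10 reads and 6 with every gene with a read tested. A530040E14Rik, the most abundant of those called higher, had an FPKM of 76.5, 27.5 and 28.7 against 2.36, 2.65 and 0.813 (log2 change 3.84, SE 0.50, adjusted p = 0.00511). Slc36a3os, antisense to the amino acid transporter gene Slc36a3, had 5, 15 and 11 reads without and none with α-amanitin (at least 2.82-fold higher, adjusted p = 0.00781). The library kit does not mark strand, so reads of an antisense RNA and of its partner cannot be told apart. Among 74 processed transcripts, 4 were higher (0 without S15 or without both S7 and S8, 1 without S7 and 2 without S17 or with every gene with a read tested) and 2 retained. Snhg5, a host of small nucleolar RNAs, was 1 of them at 40.1, 17.4 and 48.1 without and 1.86, 1.02 and 6.18 with α-amanitin (log2 change 3.27, SE 0.57, adjusted p = 0.0124). Of the 18 small nucleolar host RNAs that were members, Snhg5 alone was called. Gas5, the host with the highest level, stood at 121, 106 and 137 and 71.5, 62.00 and 93.1 and did not pass the test (adjusted p = 0.109). The adjusted p missed the threshold for Snhg5 without S15 or S7 (adjusted p up to 0.057).

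Processed pseudogenes, reverse-transcribed copies of messenger RNAs, were the second largest type, with 1044 members. Of these 34 (3.26%) were higher, 7 lower (0 without both S7 and S8 or with every gene with a read tested, 1 without S18, 2 at a minimum of 10 reads, 3 without S7 and 4 without S15) and 72 (6.9%) retained, with a median log2 change of −0.002. Those retained numbered 26 without S18, 29 without S17, 32 without S15, 37 without S16 and 45 without S7, and those called higher 4 without both S7 and S8, 11 with every gene with a read tested, at an FPKM minimum of 5 or at a minimum of 10 reads, 17 without S15 and 18 without S17, S7 or S18. AC140244.1 stood at 109, 64.4 and 222 without and 7.04, 3.84 and 5.50 with α-amanitin (log2 change 4.21, SE 0.46, adjusted p = 0.00293), and AC164556.1 had 24, 22 and 18 reads against none (at least 5.62-fold higher, adjusted p = 0.00249). Some of the most abundant retained genes were of this type as well. Gm12617 stood at 13669, 14713 and 15389.5 without and 14367, 14571 and 12801 with the toxin (log2 change 0.07, 95% interval −0.25 to 0.39), and Gm11517 at 9179.6, 10710.0 and 7361 and 10108, 8915 and 6689 (log2 change 0.09, 95% interval −0.39 to 0.56). Pseudogenes resemble their parent genes, and how reads that fit both were counted is not given in the sources used here, so their levels are uncertain. Transcribed processed pseudogenes were retained in 10 of 47 cases (21.3%), with 1 called higher, and the number retained was 1 without S18, 2 without S15 or after median-of-ratios scaling, 3 without S17 or S16, 4 without S7 or without mitochondrially encoded genes and 5 without the trend. Of 82 unprocessed pseudogenes, which are copies made by duplication, 8 (9.76%) were higher (1 without both S7 and S8 or at a minimum of 10 reads, 3 at an FPKM minimum of 5, 4 without S18 or with every gene with a read tested and 5 without S7 or S8), 1 lower and 1 retained. Of the 82, 11 were members through the libraries without α-amanitin alone and 3 through the treated ones alone. AC154636.3 had 19, 28 and 42 reads without α-amanitin and none with it (at least 7.84-fold higher, adjusted p = 0.00398).

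Small RNA genes rested on few reads. The kit primes on poly(A), and short genes reach an FPKM of 1 with a single read. Of 37 small nucleolar RNA (snoRNA) genes, 1 was higher, 4 (10.8%) were lower (1 without S17, S7 or S18, without both S7 and S8, with every gene with a read tested or at a minimum of 10 reads and 2 without S8, without the trend or with a pseudocount of 0.1) and none was retained. Snord104 was called higher from 5, 1 and 4 reads against 0, and the 2 snRNA genes called, Gm23849 and Rnu2-10, from at most 7 reads in any library. Of 15 miRNA genes 1 was called each way, Gm22346 higher from 2, 1 and 1 reads against 0, at or under the floor of 3 reads in both groups, and Mir3473a lower. Over all types, 8 of the genes called higher and 3 of those called lower had at most 3 reads in every library, 40 and 6 had under 10, and 503 of the 613 had at least 10 in each library without α-amanitin. Of 49 genes of the type TEC, loci that still await experimental tests, 3 were called in each direction. Of the 49, 8 were members through the libraries without α-amanitin alone and 3 through the treated ones alone. Gm10416, of this type, had 21, 23 and 17 reads without and none with the toxin (at least 5.40-fold higher, adjusted p = 0.00249).

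**Figure D3:**
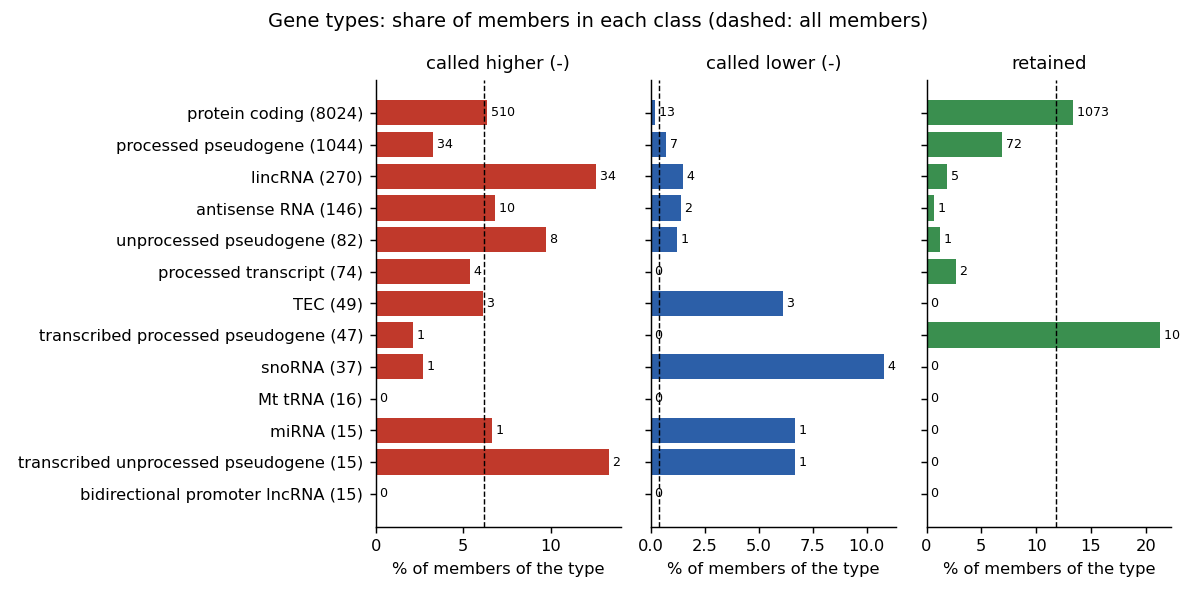
Bars give the percentage of the members of each gene type that were called higher without α-amanitin (left), called lower (middle) or retained (right), for types with at least 15 members, whose number stands in parentheses. Numbers at the bars are genes and dashed lines the percentage over all members (6.2%, 0.364% and 11.8%). lincRNAs, of which 30 were members through the untreated libraries alone, lie above the line for genes called higher and below it for retained genes.

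The most abundant genes called higher included members of multigene families, a gene of the spindle checkpoint and stress-response genes. Mad2l1bp, which binds the spindle checkpoint protein Mad2 and helps to end the checkpoint, stood at 742, 345 and 801 without and 25.4, 28.4 and 8.43 with α-amanitin (log2 change 4.93, SE 0.49, adjusted p = 0.00249). Pramel6, of the PRAME family expressed in early embryos, stood at 270.4, 399 and 567 and 42.9, 28.7 and 7.85 (log2 change 4.13, SE 0.56, adjusted p = 0.00579). Eif1a, a translation initiation factor with a role in start codon scanning, stood at 269, 175 and 274 and 18.5, 8.56 and 4.37 (log2 change 4.56, SE 0.46, adjusted p = 0.00249). In each of these 3 the lowest untreated library lay far above the highest treated one. Trim43a, a RING finger gene of early embryos, had the highest level of all genes called, 938, 1504 and 1727 without, and a wide spread under the toxin, 329.6, 123 and 20.3 (log2 change 3.82, SE 0.82, adjusted p = 0.0228). Its neighbour Trim43b followed at 810.5, 1098 and 968 and 356, 169.9 and 37.01 (log2 change 2.85, SE 0.67, adjusted p = 0.0295). Both had their highest treated level in S16 and their lowest in S8, as did Pramel7 (log2 change 3.10, SE 0.75, adjusted p = 0.0316). The threshold was missed by Trim43a without S15, S17, S7 or S18 (adjusted p up to 0.0905), Trim43b without S15, S17, S7 or S18 and with a pseudocount of 0.1 (adjusted p up to 0.103) and Pramel7 without S15, S17, S7 or S18 and with a pseudocount of 0.1 (adjusted p up to 0.115).

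The remaining genes of this group had varied functions. Id3, an inhibitor of helix-loop-helix transcription factors and a BMP target, reached 466.0 in S17 and 119.1 and 128.8 in S15 and S7, against 36.4, 24.1 and 5.97 with α-amanitin (log2 change 3.37, SE 0.69, adjusted p = 0.0197). Gsto1, a glutathione transferase, stood at 103, 281 and 334 and 18.4, 12.96 and 75.8 (log2 change 2.96, SE 0.66, adjusted p = 0.0248). Unlike the Trim43 genes it was highest among treated libraries in S8. Rab20, a small GTPase of endosomes, stood at 261, 155 and 243 and 36.8, 30.3 and 1.81 (log2 change 3.85, SE 0.86, adjusted p = 0.0254). Crip2, a LIM domain protein, stood at 211, 245 and 246 and 60.7, 14.2 and 42.6 (log2 change 2.77, SE 0.46, adjusted p = 0.0109). Uap1, which makes UDP-N-acetylglucosamine, had a mean FPKM of 213 ± 43.8 against 51.6 ± 31.1 (SD, n = 3). Timm10, a carrier of proteins into mitochondria, had one of 492 ± 155 against 142 ± 105 and an adjusted p close to the threshold (0.049). Other settings ended the call of Id3 without S15, S17, S7 or S18 (adjusted p up to 0.0647), Gsto1 without S17, S7, S16 or S18 (adjusted p up to 0.0998), Rab20 without S15, S17 or S7 and with a pseudocount of 0.1 (adjusted p up to 0.0944), Crip2 without S7 (adjusted p up to 0.051) and Uap1 without S15, S17, S7 or S18 (adjusted p up to 0.078). Timm10 passed the adjusted p in only 2 alternatives, at a minimum of 10 reads and without S18.

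**Figure D4:**
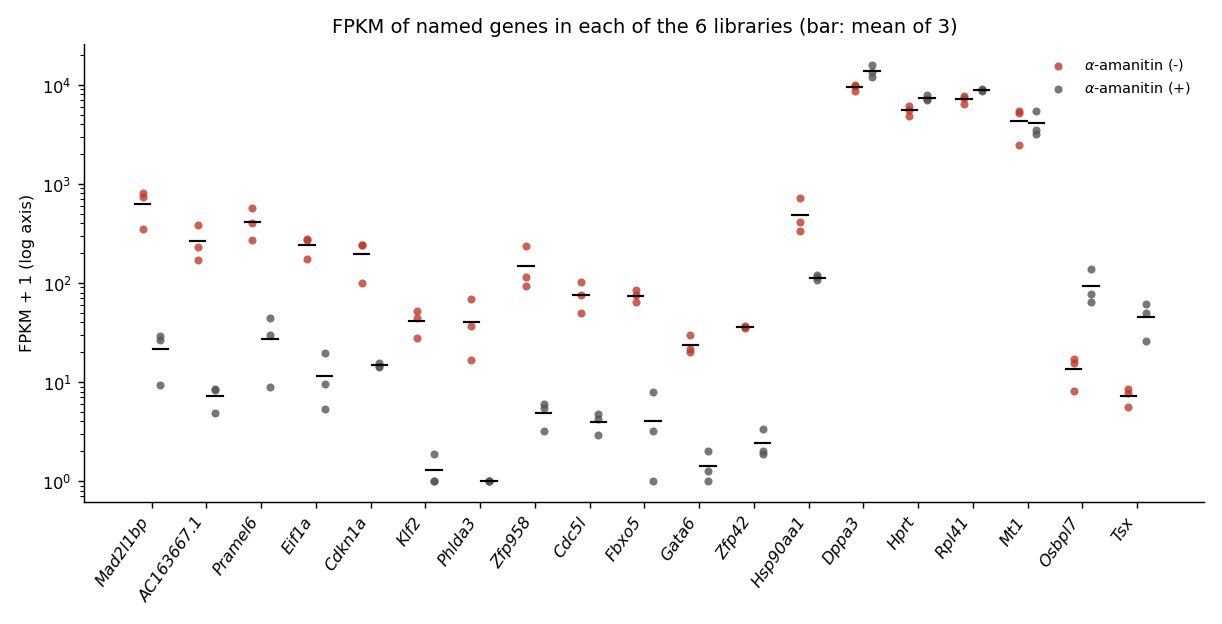
Points are the FPKM plus 1 of named genes in each of the 6 libraries on a log axis, in red without and in grey with α-amanitin, and bars the means of 3 libraries. The 13 genes on the left were called higher and their groups do not overlap. Dppa3, Hprt, Rpl41 and Mt1 were retained, and Osbpl7 and Tsx were called lower.

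Promoters are shown for a few genes called higher under every alternative run (Mad2l1bp, Pramel6, Cdc5l, Ccng1 and Zfp42) and for the retained gene Rpl41, to let their start regions be compared. Each run holds 250 bases before and 50 from the annotated start on the gene's strand (RefSeq, GRCm38.p6). Capitals mark matches, on either strand, to 8 motifs. The longer ones were CCGGAAGT of ETS factors, GCGCATGC of NRF1, AAGATGGC of YY1, TGACGTCA of the CREB family, CTCGCGAG of ZBTB33 and GGGGAGGGG of ZFP281. The others were the TATA box and CCAAT, the core bound by NF-Y.
Mad2l1bp, chr17:46153502-46153801, minus strand: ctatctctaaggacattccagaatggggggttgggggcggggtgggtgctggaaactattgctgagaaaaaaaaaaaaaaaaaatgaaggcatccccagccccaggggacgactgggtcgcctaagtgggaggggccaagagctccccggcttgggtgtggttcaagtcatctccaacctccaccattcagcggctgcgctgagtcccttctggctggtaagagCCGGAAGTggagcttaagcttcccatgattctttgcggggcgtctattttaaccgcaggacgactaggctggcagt
Pramel6, chr2:87506315-87506614, plus strand: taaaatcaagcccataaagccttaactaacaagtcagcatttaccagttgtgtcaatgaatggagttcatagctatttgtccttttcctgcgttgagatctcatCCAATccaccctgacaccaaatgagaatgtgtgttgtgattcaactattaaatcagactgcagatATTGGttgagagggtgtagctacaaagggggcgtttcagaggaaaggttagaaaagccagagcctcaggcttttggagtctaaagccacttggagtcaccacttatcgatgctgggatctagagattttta
Cdc5l, chr17:45433658-45433957, minus strand: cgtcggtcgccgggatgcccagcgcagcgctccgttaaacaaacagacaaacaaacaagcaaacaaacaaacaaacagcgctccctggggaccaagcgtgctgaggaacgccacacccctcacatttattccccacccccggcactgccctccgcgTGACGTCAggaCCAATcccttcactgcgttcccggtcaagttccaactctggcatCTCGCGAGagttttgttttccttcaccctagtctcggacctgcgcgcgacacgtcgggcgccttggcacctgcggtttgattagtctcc
Ccng1, chr11:40755237-40755536, minus strand: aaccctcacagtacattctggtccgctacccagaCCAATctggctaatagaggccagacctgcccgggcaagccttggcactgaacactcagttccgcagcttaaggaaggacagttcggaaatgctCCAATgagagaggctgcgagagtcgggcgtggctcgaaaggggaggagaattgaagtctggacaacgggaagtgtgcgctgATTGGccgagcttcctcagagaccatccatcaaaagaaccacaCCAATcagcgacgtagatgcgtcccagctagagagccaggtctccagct
Zfp42, chr8:43306960-43307259, minus strand: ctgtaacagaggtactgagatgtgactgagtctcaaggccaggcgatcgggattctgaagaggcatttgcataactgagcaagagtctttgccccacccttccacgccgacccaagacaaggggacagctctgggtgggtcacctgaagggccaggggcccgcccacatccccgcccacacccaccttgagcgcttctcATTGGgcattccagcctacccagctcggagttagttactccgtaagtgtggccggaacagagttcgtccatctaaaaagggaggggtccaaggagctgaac
Rpl41, chr10:128549119-128549418, minus strand: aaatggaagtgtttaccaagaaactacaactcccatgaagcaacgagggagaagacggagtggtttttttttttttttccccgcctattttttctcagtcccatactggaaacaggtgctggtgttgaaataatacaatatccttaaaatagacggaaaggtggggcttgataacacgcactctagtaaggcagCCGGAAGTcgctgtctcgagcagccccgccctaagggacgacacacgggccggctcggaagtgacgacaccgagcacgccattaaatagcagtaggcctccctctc
Mad2l1bp and Rpl41, which fell into different classes, each held 1 ETS match and no other. Ccng1 held 4 matches to CCAAT, Pramel6 held 2 and Zfp42 held 1. Cdc5l held a CREB, a CCAAT and a ZBTB33 match. Of all 32851 promoters in the reference table, 37.4% held CCAAT, 3.89% the ETS motif, 1.79% the CREB motif and 0.919% the ZBTB33 motif. A promoter was found for 405 of the 613 genes called higher (66.1%), under the 80% set as the minimum, so a comparison of motif shares between the classes is void and is not given.

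Known targets of p53 made up the first gene group. p53 is the transcription factor that answers DNA damage and other stress by halting the cell cycle. Of 24 targets that were members, 12 (50%) were higher, none lower and 2 retained, with a median log2 change of 2.18 against 0.37 for all members. Of the 24, 6 were members through the libraries without α-amanitin alone, where they are high. Cdkn1a, the p21 inhibitor of cyclin-dependent kinases, stood at 241, 99.3 and 239 without and 13.6, 14.6 and 13.02 with α-amanitin (log2 change 3.61, SE 0.37, adjusted p = 0.00249). Phlda3, an inhibitor of Akt signalling, had 126, 45 and 229 reads against none in any treated library (at least 33.8-fold higher, adjusted p = 0.00267). Plk2, a kinase of centriole duplication and stress, had 475, 136 and 368 reads against none (at least 82.4-fold higher, adjusted p = 0.00249). In all 3 the level without the toxin was lowest in S17. The other 9 called were Ccng1, Perp, Eda2r, Btg2, Mdm2, Trp53inp1, Gadd45g, Polk and Gadd45b, with fitted log2 changes of 2.15 to 4.14. The number called was 4 without both S7 and S8, 6 without S15 or S7 and 7 with every gene with a read tested.

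Immediate early and growth-response genes, whose transcripts turn over quickly, were called in 6 of 19 cases (31.6%), with none lower or retained and a median log2 change of 1.75, and 4 of the 19 were members through the untreated libraries alone. Klf2, a Krüppel-like transcription factor, stood at 42.8, 26.6 and 51.1 without and 0.873, 0 and 0 with α-amanitin (log2 change 5.01, SE 0.45, adjusted p = 0.00202). Dusp1, a MAP kinase phosphatase, had 23, 23 and 38 reads against at most 1 (at least 7.32-fold higher, adjusted p = 0.00821). Cyr61, Btg1, Id3 and Myc, the growth regulator, were the others, with Myc at a log2 change of 2.04. The count was 1 without both S7 and S8, 2 without S17 or S7 or with every gene with a read tested and 3 without S15 or S18. Of 30 members of the unfolded protein and integrated stress responses, 1 was higher (3.33%, 0 without both S7 and S8, with every gene with a read tested or at an FPKM minimum of 5) and 3 were retained (1 without S17 and 6 without S7 or without both S7 and S8), with a median of 0.54. That gene was Ddit4, an inhibitor of mTORC1 signalling, with 13, 24 and 23 reads against at most 1 (at least 5.36-fold higher, adjusted p = 0.0131). Psat1, a serine synthesis enzyme that this response induces, stood at 229, 241 and 209 and 234, 252 and 196 (log2 change 0.00, 95% interval −0.47 to 0.47).

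Genes for zinc finger proteins formed the largest group, with 48 of 170 members called higher (28.2%), none lower and 1 retained, and a median log2 change of 1.46. A total of 162 of the 170 had a positive change, and 35 were members through the libraries without α-amanitin alone. Zfp958 stood at 237, 114 and 92.5 without and 2.18, 4.47 and 5.06 with α-amanitin (log2 change 4.86, SE 0.43, adjusted p = 0.00202). Over all 395 genes of this kind in the table the summed FPKM was 2385 to 3085 without and 637.1 to 1122 with the toxin. The number called was 9 without both S7 and S8 and 30 without S15. A list of transcription factors and other genes of pluripotent and trophectoderm cells had 8 of 30 members called (26.7%) and 3 retained, and 4 were members through the libraries without α-amanitin alone. It also holds Dppa3 and Dppa5a, which are not transcription factors, and both were among those retained. Zfp42 (Rex1), a marker of naive pluripotency, stood at 35.7, 34.6 and 33.9 and 0.857, 2.34 and 1.004 (log2 change 3.95, SE 0.38, adjusted p = 0.00249), and its untreated libraries agreed closely. Gata6, a regulator of primitive endoderm, stood at 19.1, 20.4 and 29.1 and 1.01, 0.275 and 0 (log2 change 4.10, SE 0.43, adjusted p = 0.00267). Tbx3, a T-box factor, stood at 3.84, 5.53 and 5.17 and 0.779, 0.133 and 0.095 (log2 change 2.15, SE 0.39, adjusted p = 0.0144). Tfcp2l1, Elf3 (no read in a treated library), Nr5a2, Tfap2c and Klf5 were also called, with fitted log2 changes of 2.03 to 3.12. The count was 2 without S18, without both S7 and S8 or with every gene with a read tested, 3 without S15 and 4 without S17 or S7 or after median-of-ratios scaling. Tbx3 was lost without S18 (adjusted p up to 0.0525). By the Gene Ontology annotation in the deposited tables, 31 of 229 members with DNA-binding transcription factor activity were higher (13.5%) and 11 retained (4.8%), against 6.29% and 13.5% of the 7874 annotated protein-coding members.

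Proteins of cell contacts and of the later blastocyst cavity were called in 5 of 24 cases (20.8%), with 1 retained. Of the 24, 2 were members through the libraries without α-amanitin alone, Pard6b among them. Cldn4, a claudin of tight junctions, stood at 19.1, 19.3 and 58.8 without and 3.02, 0.484 and 2.43 with α-amanitin (log2 change 3.41, SE 0.57, adjusted p = 0.0109). Pard6b, of the cell polarity complex, stood at 5.29, 5.31 and 2.45 and 0.854, 0 and 0 (log2 change 2.07, SE 0.44, adjusted p = 0.0227). Krt18, an intermediate filament protein of trophectoderm, and Aqp3 were also called. For this list the number called was 0 without both S7 and S8, 1 without S17, S18 or S8 or with every gene with a read tested, 2 without S7 and 3 with a pseudocount of 0.1 or at an FPKM minimum of 5. Calls not kept were those of Pard6b without S15, S17, S18 or S8 and with a pseudocount of 0.1 (adjusted p up to 0.0761). Families of the 2-cell stage had 14 of 19 members called (73.7%), and 10 of the 19 were members through the libraries without α-amanitin alone, and 7 had no read in any treated library. With such genes put at the bound that 3 reads in each treated library allow, the median log2 change of the families was 3.02 rather than 3.88. The 14 calls became 7 without both S7 and S8. Pramel4, which was detected in all treated libraries, stood at 61.3, 66.9 and 71.3 and 4.01, 1.41 and 1.26 (log2 change 4.48, SE 0.39, adjusted p = 0.00202). Such families hold near-identical copies, so the level of a single copy is uncertain.

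Genes of DNA replication were called in 8 of 53 cases (15.1%), with 12 retained (6 without S15 and 7 without S18) and a median log2 change of 0.46, close to that of all members. Those called were genes of origin licensing, origin firing and clamp loading: Orc1, Cdc6, Cdt1 and Mcm4 license origins, Cdc7, Ticrr and Gins3 fire them, and Rfc3 loads the clamp. Cdc7, the kinase that fires origins, stood at 38.1, 12.2 and 14.04 without and 4.47, 0.421 and 0.903 with α-amanitin (log2 change 3.01, SE 0.63, adjusted p = 0.0207). Rfc3 stood at 26.9, 26.6 and 31.2 and 5.27, 10.5 and 1.92 (log2 change 2.30, SE 0.50, adjusted p = 0.0229), and Ticrr at 9.52, 6.72 and 4.25 and 1.35, 0.527 and 0.818 (log2 change 2.01, SE 0.44, adjusted p = 0.0235). The number called was 0 without S15 or S17, without both S7 and S8 or with every gene with a read tested, 1 without S8, 2 without S7 and 4 without S18 or after median-of-ratios scaling. Not all calls held, with losses for Cdc7 without S15, S17, S7, S18 or S8 (adjusted p up to 0.0767), Rfc3 without S15, S17 or S7 (adjusted p up to 0.0847) and Ticrr without S15, S17, S18 or S8 (adjusted p up to 0.0795).

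Of 53 genes of mitosis and the spindle checkpoint 3 were higher (1 without S15, S17 or S7, without both S7 and S8 or with every gene with a read tested) and 11 retained (4 without S16, 5 without S15, S17 or S18 and 7 without the trend). The share higher, 5.66%, was close to the 6.2% of all members. Fbxo5 (Emi1), the inhibitor of the anaphase-promoting complex, stood at 73.8, 83.8 and 63.3 without and 6.92, 2.20 and 0 with α-amanitin (log2 change 4.66, SE 0.66, adjusted p = 0.00723). Aurka, the Aurora A kinase, stood at 138, 179 and 209.5 and 69.2, 62.9 and 11.4 (log2 change 2.19, SE 0.60, adjusted p = 0.0479), and Mis12, of the kinetochore, at 17.98, 11.6 and 8.93 and 1.93, 2.93 and 0.629 (log2 change 2.33, SE 0.48, adjusted p = 0.0197). Tubulins, the target of demecolcine, and their folding factors had 2 of 16 called (1 without both S7 and S8). Of the 16, 3 were members through the libraries without α-amanitin alone, Tuba4a among them. Tubb4b stood at 26.7, 31.1 and 39.4 and 3.09, 6.74 and 3.62 (log2 change 2.65, SE 0.38, adjusted p = 0.00723), and Tuba4a at 12.1, 8.56 and 16.5 and 0.174, 0 and 0.85 (log2 change 3.33, SE 0.45, adjusted p = 0.00579). The adjusted p missed the threshold for Aurka without S15, S17, S7 or S18, without the trend, after median-of-ratios scaling, with a pseudocount of 0.1 and without mitochondrially encoded genes (adjusted p up to 0.157) and Mis12 without S15, S17 or S7 (adjusted p up to 0.0776).

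Replication-dependent histone genes, whose messenger RNAs mostly lack a poly(A) tail, were members in 13 of 67 cases. Of these 3 were higher, none lower or retained, and the median log2 change was 1.70, or 1.34 with the gene without treated reads at its bound, and 3 of the 13 were members through the untreated libraries alone. Those called numbered 0 without both S7 and S8 and 1 without S15 or S18, with every gene with a read tested, at an FPKM minimum of 5 or at a minimum of 10 reads. Hist1h2bc stood at 75.9, 24.1 and 28.4 without and 0.279, 2.28 and 6.53 with α-amanitin (log2 change 3.60, SE 0.68, adjusted p = 0.0154). Hist1h1b, a linker histone, had 10, 10 and 8 reads against none (at least 2.47-fold higher, adjusted p = 0.00508). Of 29 histone variants and histone chaperones, 1 was higher and 11 were retained (37.9%, 4 without S16, 5 without the trend, 6 without S17 and 7 without S18). Asf1b, a histone chaperone of dividing cells, was that gene at 151, 102 and 62.3 and 14.8, 27.5 and 6.999 (log2 change 2.70, SE 0.50, adjusted p = 0.0144), while Npm1, a nucleolar histone chaperone, stood at 865, 1114 and 1039 and 1167, 1004 and 885 (log2 change −0.02, 95% interval −0.45 to 0.42). Among 62 chromatin modifiers and remodellers 3 were higher and 6 retained (2 without S15 and 3 without S17 or S18). These were 4.84% and 9.68%, beside 6.2% and 11.8% of all members. Those higher numbered 0 without both S7 and S8 and 1 without S15, S17, S7 or S8, after median-of-ratios scaling or with every gene with a read tested. The genes higher were Brd2, a reader of acetylated histones, at 8.49, 9.15 and 7.43 and 0.797, 0.845 and 0.432 (log2 change 2.47, SE 0.38, adjusted p = 0.00869), Eed of the Polycomb complex PRC2 (log2 change 2.06, SE 0.47, adjusted p = 0.027) and the acetyltransferase Kat7 (log2 change 2.31, SE 0.58, adjusted p = 0.0355). The threshold was missed by Hist1h2bc without S15, S7 or S18 (adjusted p up to 0.0616), Asf1b without S15 or S17 (adjusted p up to 0.0592), Eed without S15, S17 or S7 (adjusted p up to 0.1) and Kat7 without S15, S17, S7, S18 or S8, after median-of-ratios scaling and with a pseudocount of 0.1 (adjusted p up to 0.129).

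A list of 70 members held subunits of Pol II, TBP-associated and other general factors and Mediator. It also held Taf1a, Taf1b, Taf1c and Taf1d, which serve Pol I and are in the Pol I and Pol III list too, and Taf5l and Taf6l of the SAGA coactivator. Of the 70, 2 were higher (0 without both S7 and S8, 1 at an FPKM minimum of 5 and 8 without S16) and 16 retained (22.9%, 10 without S15 and 25 without S8), and none of 31 subunits and factors of Pol I and Pol III met both criteria in the limma fit, although 3 were higher at the adjusted p alone, and 7 were higher and 1 lower at an unadjusted p under 0.05. Both genes called belong to Mediator, the bridge between activators and Pol II: Med7 stood at 89.4, 41.7 and 54.3 without and 7.08, 2.76 and 3.51 with α-amanitin (log2 change 3.54, SE 0.42, adjusted p = 0.00402), and Med18 had 26, 20 and 20 reads against none (at least 5.75-fold higher, adjusted p = 0.00527). Elongation and termination factors were called in 5 of 46 cases (10.9%) with 3 retained (1 without S16, 5 with every gene with a read tested, 7 without S8, without both S7 and S8 or after median-of-ratios scaling and 8 without mitochondrially encoded genes). These were the cyclins of the elongation factor P-TEFb, Ccnt1 at 38.9, 25.9 and 24.99 and 8.24, 6.15 and 2.54 (log2 change 2.30, SE 0.43, adjusted p = 0.0154) and Ccnt2 (log2 change 2.12, SE 0.39, adjusted p = 0.0146), and the cleavage factors Cstf1 at 47.1, 24.5 and 54.2 and 7.91, 3.26 and 1.08 (log2 change 3.25, SE 0.56, adjusted p = 0.012), Clp1 (log2 change 4.37) and Pcf11 (log2 change 2.55). The number called among these factors was 0 without S15 or S7, 1 without both S7 and S8, 2 without S8 or with every gene with a read tested and 3 at an FPKM minimum of 5. Other settings ended the call of Ccnt1 without S15, S17 or S7 (adjusted p up to 0.0649), Ccnt2 without S15 or S7 (adjusted p up to 0.0522) and Cstf1 without S15 or S7 (adjusted p up to 0.0554).

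Among 76 spliceosome genes 3 were higher (1 without both S7 and S8) and 26 retained (34.2%). The retained ones numbered 12 without S16 or S18, 13 without S15, 15 without the trend and 17 without S17. Cdc5l, of the splicing complex named for Prp19, stood at 74.01, 49.2 and 101 without and 1.94, 3.24 and 3.79 with α-amanitin (log2 change 4.22, SE 0.38, adjusted p = 0.00202). Cwc25 and Sf3b4 had log2 changes of 2.46 and 2.47. Ribosome biogenesis factors were higher in 8 of 111 cases (7.21%), close to the 6.2% of all members, and retained in 28 (14 without S15, 16 without S16 and 45 without S8). Rrp36, which processes the precursor of 18S ribosomal RNA, stood at 88.9, 60.8 and 68.9 and 16.7, 11.04 and 4.21 (log2 change 2.82, SE 0.45, adjusted p = 0.00955), and Nol11, of the small subunit processome, at 27.4, 30.6 and 42.6 and 8.31, 7.72 and 6.11 (log2 change 2.03, SE 0.33, adjusted p = 0.00956). The other 6 called were Rpp38, Pop7, Rrs1, Wdr3, Nol8 and Noc3l. Of these factors the number higher was 2 without both S7 and S8, 3 without S15 or S7 or with every gene with a read tested, 4 without S17 or S8, after median-of-ratios scaling or without mitochondrially encoded genes and 5 without S18 or with a pseudocount of 0.1. Enzymes that modify transfer RNAs had 4 of 48 higher, Trmt10c (log2 change 4.48, SE 0.79, adjusted p = 0.0132), Elp3 of the Elongator complex at 9.94, 8.37 and 16.3 and 1.29, 1.76 and 0, Trmt1l and Kti12, and their number was 0 without S15 or without both S7 and S8 and 2 without S7 or S18, after median-of-ratios scaling or with every gene with a read tested. Of 57 nuclear pore and transport genes, 3 were higher (1 without both S7 and S8) and 11 retained (3 without S17, 4 without S15 or S18, 5 without S7 or S16 and 7 without both S7 and S8). Nxt1, a partner in mRNA export, stood at 216, 88.1 and 86.2 and 15.9, 6.31 and 7.33 (log2 change 3.56, SE 0.46, adjusted p = 0.00511), and Nup62 of the central channel at 25.5, 16.1 and 11.7 and 0.452, 0.616 and 1.10 (log2 change 3.39, SE 0.44, adjusted p = 0.00495). Calls not kept were those of Sf3b4 without S15, S17, S7 or S18 (adjusted p up to 0.0776), Trmt10c without S15 (adjusted p up to 0.0564), Trmt1l without S18 (adjusted p up to 0.0524) and Elp3 without S15 or S7 and with a pseudocount of 0.1 (adjusted p up to 0.0663).

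**Figure D5:**
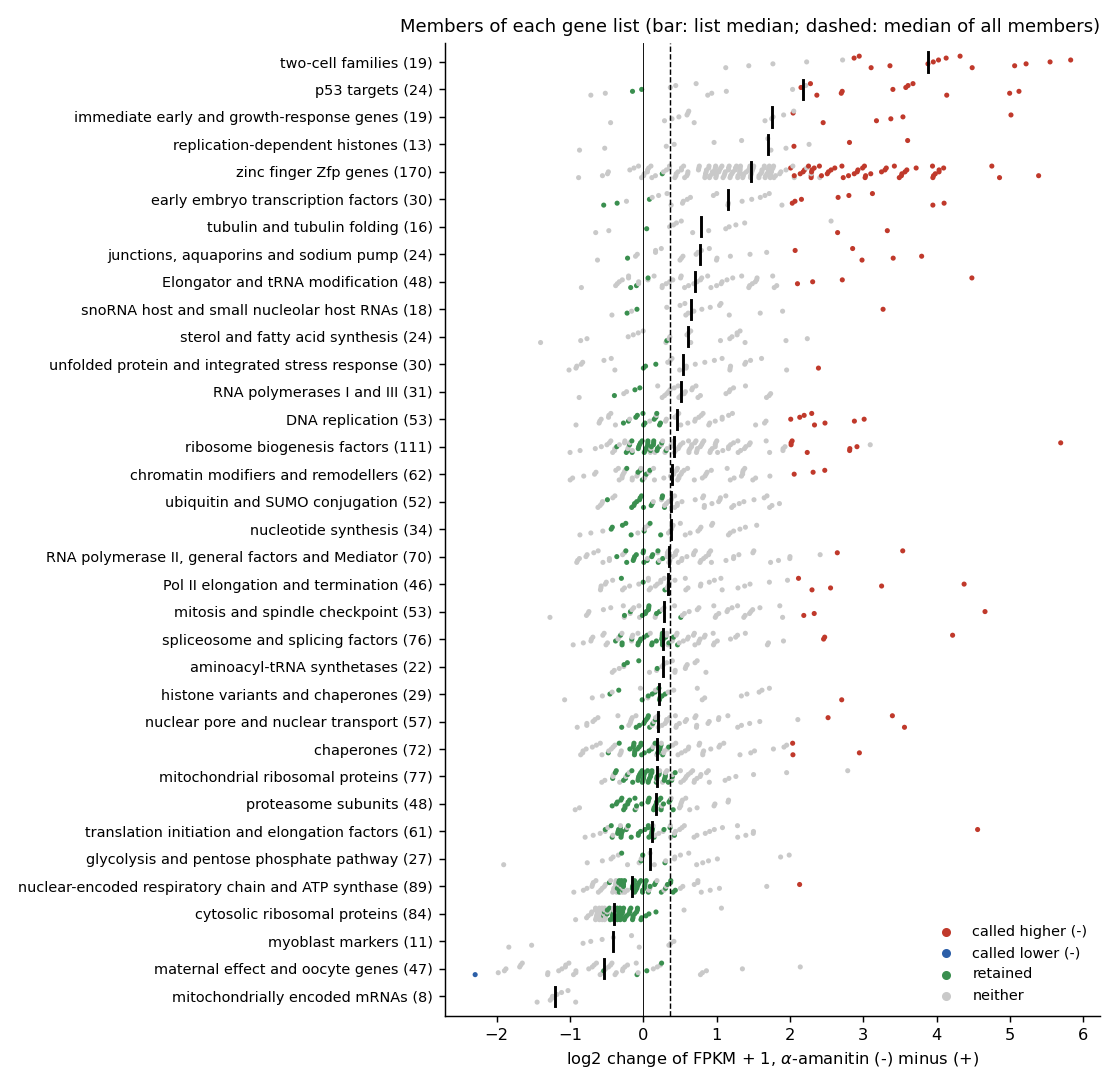
Points are the members of each gene list (rows, with their number in parentheses) at their log2 change of FPKM + 1, without minus with α-amanitin. Red marks genes called higher, blue called lower, green retained and grey neither. Black bars are list medians, and the dashed line is the median of all members, 0.37. Lists at the top, such as p53 targets (median 2.18), lie to the right of it, and cytosolic ribosomal proteins (−0.40) and mitochondrially encoded mRNAs (−1.21) to its left.

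Many genes of protein synthesis and degradation were retained. Retained genes were mostly abundant: 1018 of the 1164 had a mean FPKM of at least 10 without α-amanitin, against 4016 of all 9884 members. Shares among genes of a like level were not computed, so level and function cannot be told apart in the retained shares of the lists below. None of 84 cytosolic ribosomal protein genes passed the limma test in either direction (at an unadjusted p under 0.05, 22 were lower and 0 higher without the toxin), and 49 (58.3%) were retained, against 11.8% of all members. The number retained was 13 after median-of-ratios scaling, 23 without the trend, 31 without S18, 74 without both S7 and S8 and 75 without S8, while that of all members was 972 after median-of-ratios scaling, 1000 without the trend and 548 (without S17) to 1364 (without S8) with 1 library left out. Their median log2 change was −0.40, or −0.77 relative to all members, and under median-of-ratios scaling it was −0.71. In sum they reached an FPKM of 32443 to 34620.2 without and of 40641 to 49997 with α-amanitin, so each treated library was above each untreated one. Rpl41 stood at 7721, 7374 and 6378 without and 8963, 8610.1 and 8976 with α-amanitin (log2 change −0.31, 95% interval −0.65 to 0.03), Rplp0 at 1711, 1708 and 1181 and 1826, 2145 and 1422 (log2 change −0.23, 95% interval −0.75 to 0.29). Of 77 mitochondrial ribosomal protein genes 41 were retained (53.2%), of 61 translation factors 30 (49.2%) with Eif1a alone called, and of 22 aminoacyl-tRNA synthetases 4 (18.2%, 2 without S17 or S18 and 7 without S8, without both S7 and S8 or after median-of-ratios scaling) with none called by limma (2 had an unadjusted p under 0.05). The 41 became 21 without S18, 23 without S15 and 24 without S17, and the 30 became 17 without S18, 18 without S15 or S16 or without the trend and 19 without S17. The medians of these 3 lists were 0.19, 0.11 and 0.26, and they turned to −0.09, −0.19 and −0.04 under median-of-ratios scaling. By Gene Ontology annotation, 91 of 164 members of the ribosome (55.5%) were retained and 1 was higher.

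Proteasome subunits were retained in 31 of 48 cases (64.6%), with none called by limma, 5 higher and 1 lower at an unadjusted p under 0.05. Psma6, of the ring that gates the core particle, stood at 1586, 1665 and 1346 without and 1738, 2052 and 1679.6 with α-amanitin (log2 change −0.25, 95% interval −0.65 to 0.15), and Psmb1 of the core's inner ring at 1028, 1027 and 801 and 960.3, 1011 and 755 (log2 change 0.07, 95% interval −0.39 to 0.53). Over all 51 subunit genes in the table the summed FPKM lay between 10103 and 10893 without and between 8992 and 11206 with the toxin. Of 52 genes of ubiquitin and SUMO conjugation none met both criteria in the limma fit (3 higher at the adjusted p alone, 11 higher and 2 lower at an unadjusted p under 0.05) and 14 were retained (26.9%, 7 without S17 or S18 and 8 without S15 or S16). Chaperones were retained in 25 of 72 cases (34.7%, 15 without S17 or S16), and 3 were higher (0 without S7, 1 without S15 or S8, without both S7 and S8, after median-of-ratios scaling or without mitochondrially encoded genes and 5 without S16). Hsp90aa1, the inducible form of Hsp90, stood at 337, 407 and 724 and 113, 119 and 105 (log2 change 2.04, SE 0.29, adjusted p = 0.00747), and its treated libraries were close to each other. Bag5, an Hsp70 cochaperone, stood at 32.4, 27.9 and 34.1 and 5.40, 5.61 and 0.753 (log2 change 2.94, SE 0.53, adjusted p = 0.0139), and Dnajc30 was the third (log2 change 2.04, SE 0.54, adjusted p = 0.0444). Not all calls held, with losses for Bag5 without S15 or S7 (adjusted p up to 0.0587) and Dnajc30 without S15, S17, S7, S18 or S8, at an FPKM minimum of 5, after median-of-ratios scaling, with a pseudocount of 0.1 and without mitochondrially encoded genes (adjusted p up to 0.135).

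Of 89 nuclear-encoded subunits and factors of the respiratory chain and ATP synthase, 46 were retained (51.7%) and 1, the assembly factor Ndufaf1, was higher at 66.4, 79.7 and 66.2 without and 26.2, 14.1 and 9.64 with α-amanitin (log2 change 2.13, SE 0.37, adjusted p = 0.0124). The number retained was 21 after median-of-ratios scaling or without the trend, 23 without S18, 24 without S17, 28 without S7 or S16 and 30 without S15. Cox8a, a subunit of cytochrome c oxidase, stood at 1326, 1547 and 1399.9 and 1298, 1619 and 2586 (log2 change −0.31, 95% interval −0.88 to 0.27). Mitochondrially encoded messenger RNAs, made by the mitochondrial polymerase, had lower levels without α-amanitin. Of the 8 that were members, 7 passed the adjusted p and none the 4-fold criterion, with a median log2 change of −1.21 that stood at −1.52 under median-of-ratios scaling. mt-Cytb, the cytochrome b subunit, stood at 14581, 17961 and 20306 without and 41371, 39826 and 65666 with the toxin (log2 change −1.45, SE 0.22, adjusted p = 0.00824), and mt-Nd1 at 13866, 9861 and 9636 and 18579.6, 28665 and 34677 (log2 change −1.27, SE 0.25, adjusted p = 0.0173, up to 0.0752 without S17, S18 or S7 or without the trend). All mitochondrially encoded genes together took 5.91 ± 0.171% of reads without and 14.5 ± 3.98% with it (SD, n = 3, exact permutation p = 0.1). The treated libraries ranged from 11.4% in S16 to 18.99% in S8. Among 16 mitochondrial tRNA genes that were members, 6 passed the adjusted p, all lower without the toxin. FPKM are shares of a library, so a rise in mitochondrial transcripts and a loss of the others cannot be told apart. The adjusted p missed the threshold for Ndufaf1 without S17 (adjusted p up to 0.0504).

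None of 27 glycolysis and pentose phosphate genes, 24 genes of sterol and fatty acid synthesis or 34 of nucleotide synthesis met both criteria in the limma fit. At the adjusted p alone 2 of each list were higher and 1 sterol or fatty acid gene was lower. At an unadjusted p under 0.05, 4, 8 and 6 of them were higher and 1, 2 and 3 lower, and 4, 1 and 8 were retained. The 4 became 1 without S17, S16 or S18 and 2 without S15 or S7 or without the trend, the 1 became 0 without S17, S16 or S18 or without the trend and 2 without S8, without both S7 and S8 or after median-of-ratios scaling, and the 8 became 4 without S15 or S16 and 5 without S17, after median-of-ratios scaling or without the trend. Among the most abundant retained transcripts were salvage and synthesis enzymes of purines. Hprt, which recycles hypoxanthine and guanine, stood at 6158, 5519 and 4882 without and 7272, 7878 and 6993 with α-amanitin (log2 change −0.42, 95% interval −0.78 to −0.07), and Prps1, which makes the activated ribose, at 2283, 1875 and 1463 and 2933, 2395 and 1616 (log2 change −0.29, 95% interval −0.88 to 0.30). After median-of-ratios scaling Hprt passed the adjusted p as lower without the toxin (limma, adjusted p = 0.0477). Mt1 and Mt2, metallothioneins that bind zinc, were retained at 5158, 5459 and 2447 and 3509, 3213 and 5493 and at 3369, 3414 and 1645 and 2259.5, 2418 and 4693. Both were lowest without the toxin in S7 and highest with it in S8. Cnbp, a zinc knuckle RNA-binding protein, stood at 1335, 1239 and 1235 and 1546, 1658 and 1859 (log2 change −0.41, 95% interval −0.78 to −0.03), and Eloc, of the elongin and ubiquitin ligase complexes, at 1409.8, 1538 and 1495 and 1462, 1239.6 and 1353 (log2 change 0.13, 95% interval −0.24 to 0.51).

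Maternal effect and oocyte genes were not called higher. Of 47 members none was higher by limma (1 at an unadjusted p under 0.05), 1 lower (0 without S15, S17, S7, S18 or S8, without both S7 and S8, with a pseudocount of 0.1 or with every gene with a read tested, 2 without S16 or without mitochondrially encoded genes and 3 after median-of-ratios scaling) and 4 retained (0 without S15, S17 or S16, 1 without S7 or S18, after median-of-ratios scaling or without the trend and 2 without both S7 and S8 or without mitochondrially encoded genes), with a median log2 change of −0.54 (−0.77 under median-of-ratios scaling), and 3 passed the adjusted p, all lower without α-amanitin. Over all 69 genes of the list in the table the summed FPKM was 9206 to 10351 without and 12600.5 to 16739.5 with the toxin. Dppa3 alone held 94.3% to 97.2% of these sums, and without it they were 481, 438 and 529 without and 492, 391 and 812 with α-amanitin, which overlap. Dppa3 (Stella), a maternal protein that protects DNA methylation in the zygote, was the most abundant retained gene that codes for protein, at 9870.0, 9788 and 8677 and 12108, 13392 and 15928 (log2 change −0.54, 95% interval −0.91 to −0.18). After median-of-ratios scaling and without mitochondrially encoded genes Dppa3 passed the adjusted p as lower without the toxin (limma, adjusted p down to 0.0448). Fbxw15, of an oocyte family of F-box genes, was called lower at 1.47, 0.366 and 3.09 and 6.04, 12.9 and 15.6 (log2 change −2.29, SE 0.54, adjusted p = 0.0299). Dppa5a, an RNA-binding protein of pluripotent cells, stood at 2829, 3086 and 4576 and 2822, 2538 and 4699 (log2 change 0.08, 95% interval −0.54 to 0.71). The threshold was missed by Fbxw15 without S15, S17, S7, S18 or S8 and with a pseudocount of 0.1 (adjusted p up to 0.1).

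The 36 genes called lower were a mixed set: 13 protein-coding genes, 7 processed pseudogenes, 4 lincRNAs, 4 snoRNA genes, 3 TEC genes, 2 antisense RNAs and 1 each of 3 further types. Osbpl7, a lipid carrier of the oxysterol-binding family, stood at 7.19, 15.9 and 14.4 without and 76.5, 137 and 63.4 with α-amanitin (log2 change −2.78, SE 0.40, adjusted p = 0.00754). Tsx, a testis-expressed gene near the X inactivation centre, stood at 7.57, 6.73 and 4.56 and 48.8, 24.9 and 60.5 (log2 change −2.58, SE 0.40, adjusted p = 0.00905). The snoRNA gene Gm24616 stood at 91.6, 62.9 and 29.9 and 241, 291 and 435 (log2 change −2.47, SE 0.41, adjusted p = 0.0108), and Snora47, which guides pseudouridine formation, at 6.36, 15.8 and 3.35 and 18.7, 63.7 and 119 (log2 change −2.71, SE 0.70, adjusted p = 0.0397). Osbpl7, Tsx and Gm24616 kept their call when any 1 library was left out. The lincRNA Gm26917 stood at 39.9, 61.1 and 25.3 and 118, 131 and 309.9 (log2 change −2.06, SE 0.44, adjusted p = 0.0222), and the processed pseudogene AC139294.1 at 149.9, 33.5 and 198 and 321, 1248 and 908 (log2 change −2.82, SE 0.69, adjusted p = 0.0329). Other settings ended the call of Snora47 without S15, S17, S7, S18 or S8, without the trend and with a pseudocount of 0.1 (adjusted p up to 0.14), Gm26917 without S15, S7 or S18 (adjusted p up to 0.0787) and AC139294.1 without S15, S17, S7, S18 or S8, without the trend and with a pseudocount of 0.1 (adjusted p up to 0.104).

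Mir3473a was the 1 miRNA gene called lower. Its mature product is shown because the 18 bases, and the seed of bases 2 to 8 in capitals that pairs with targets, identify the family (RefSeq, GRCm38.p6, chrX:162874920-162874937, minus strand).
mmu-miR-3473a: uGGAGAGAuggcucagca
The gene stood at 0, 0 and 88.9 without and 95.1, 406 and 387 with α-amanitin, which was 0, 0 and 15 reads against 23, 36 and 48 (adjusted p = 0.0452). The poly(A) kit measures RNA that spans the 78 bases of the hairpin and not the mature miRNA. Calls not kept were those of Mir3473a without S15, S17, S16, S18 or S8, without the trend and with a pseudocount of 0.1 (adjusted p up to 0.152).

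Gene structure was compared by class. Protein-coding genes called higher had a median of 5 exons, an exonic length of 2847 bases and a genomic span of 13.5 kb, against 9 exons, 3656 bases and 20.6 kb for all protein-coding members. Retained genes had 8 exons, 3057 bases and 14.9 kb. Genes of a single exon made up 4.12% of those called higher (21 of 510), 0.56% of those retained and 2.06% of all. The difference in span was smaller among well-expressed genes: among genes with a mean FPKM of at least 10 without α-amanitin, the 331 called higher spanned a median of 13.1 kb with 5 exons, and the 3258 others 15.5 kb with 8 exons. Leaving out zinc finger genes, histones and families of the 2-cell stage left 445 genes called higher with 5 exons and 13.4 kb. These are medians over genes and carry no test. By chromosome, the share called higher was 10.4% on chromosome 13 (44 of 423) and 3.48% on X (14 of 402), and none of 24 mitochondrial genes and 6 genes on Y was called. By annotated function, GTPases were called higher in 15 of 142 cases (10.6%), ubiquitin ligases in 12 of 139 (8.63%) and helicases in 1 of 94 (1.06%), beside 4.51% of 1132 mitochondrial and 4.07% of 615 RNA-binding members, of which 20.4% and 22.8% were retained.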

How the data were processed

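Total RNA from pools of 3 NT embryos was amplified with an oligo(dT)-primed kit that does not mark strand, and sequenced. The authors trimmed the reads with Trimmomatic, Trim Galore and Cutadapt, mapped them to mm10 with STAR and counted them per gene with featureCounts, and the deposited values are FPKM. Groups were taken from the labels. The column names show the group of each library and no replicate number. The pools were separate, and p-values measure the spread between these pools. The other 28 sample columns were not used.

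FPKM times gene length gave whole multiples of 1 read for 100% of values (tolerance 0.01 read), and reads and depth were derived from this for description. Members, as defined above, were tested by limma (version 3.58.1 in R 4.3.3) after adding a pseudocount of 1 and taking log2 values, and a trend of the variance with the mean was allowed. p-values were adjusted by Benjamini-Hochberg over all of them. A call needed an adjusted p under 0.05 and a 4-fold change. A log2 change on this scale understates the change of low genes. Where no treated library had over 3 reads, the fold is a lower bound with 3 reads in each, which covers counting error only. On data simulated from these libraries (9581 genes), the fit called 18.2% of 4-fold, 75.8% of 8-fold and 93.8% of 16-fold changes and 0.0533% of unchanged genes. A 4-fold change lies on the fold criterion itself, so many such changes miss it by design. Genes were drawn independently and libraries had no shared differences such as those of S8. The last share is therefore not a false-call rate for these data. Library values were compared by exact permutation (Python 3.11.15, scipy 1.17.1).

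Named genes were the 15 called higher with the highest level without α-amanitin, the 15 retained and 10 called lower with the highest level with it, the 3 called members of each list with the smallest adjusted p, filled up to 2 with the most abundant members, and the 3 called genes of each noncoding type with the smallest adjusted p. A gene that this rule selects is not reported here. Further list members that were called are named from their counts, after their values were seen. Members and lists were chosen with earlier results of these data known. Gene Ontology terms were fixed before their values were seen, and the minimum of 10 reads and the fit without S7 and S8 were added after seeing the data.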

Additional observations from a re-analysis of the deposited data

How the results depend on the processing

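The 106 named genes that were called kept their direction in every alternative that tested them, while 17 of the 41 named genes that were not called (retained, marker or undecided ones) changed sign in at least 1. Testing every gene with a read called 259 genes higher and 5 lower, an FPKM minimum of 5 in 3 libraries called 398 higher among fewer genes, dropping the fold criterion gave 1093 and 112, and leaving out S7 and S8 together gave 86 and 5. Leaving out 1 library in turn gave 298 to 797 genes higher, 7 to 58 lower and 548 to 1364 retained. Without S18, S7, S17, S15 or S8 fewer genes were called than from all 6, and without S16 more. Of the 613 genes higher, 207 were called in all 6 of these fits and 68 in every alternative, and of the 36 lower 4 and 1. Of the 1164 retained genes, 358 were retained in all 6 of these fits, and 517 were also retained after median-of-ratios scaling. A minimum of 10 reads gave 537 higher and 26 lower, of which 503 and 24 were among the 613 and 36. Counts with edgeR and DESeq2 were planned on recovered reads. They were left out by choice because the deposited unit is FPKM, although whole reads could be recovered. The share of mitochondrial reads and the number of genes found at equal depth kept their direction. No paired analysis was possible because the columns carry no replicate numbers. Depth limits genes with few reads: at most 3 reads in each library lay behind 8 calls higher and 3 lower.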

Other observations

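Of 35 mitochondrially encoded genes in the table, 9 had an FPKM under 1 in all 6 libraries, among them 4 of the 13 messenger RNAs (mt-Co2, mt-Atp8, mt-Atp6 and mt-Co3). These 4 lie next to each other in the mitochondrial genome. How reads with more than one match were counted is not given in the sources used here, so the near-zero values of these genes are uncertain as levels.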
